A study of Mus musculus with 6 samples.

Results

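The 35 genes described here lie on either side of Usp10 on mouse chromosome 8, from Cdh13 on one side to Slc7a5 on the other, within about 3 Mb of it. They were taken by position from a fixed list of names, which was chosen with earlier results of these data known. Usp10 itself is not among them. Of the 35 names, 34 matched at least 1 probe of the array through its accession or gene name, and 29 of the 21207 genes tested were among them. RNA from the kidneys of newborn mice was hybridised to 6 single-colour arrays, 3 labelled USP10 KO (knockout) and 3 labelled USP10 WT (wild type). All animals are labelled male, the kidneys were taken about 6 hours after birth, and the design text describes separate neonates within a genotype. The sources used here do not give the strain, the altered part of the gene, any Cre driver or the litters.

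Genes next to an altered locus are inherited together with it, so that their transcripts are commonly looked at in knockout animals. The stretch holds genes of unrelated function that are kept side by side in many mammals. Among them are a cluster of forkhead transcription factors that act in the mesenchyme and vessels of the embryo, the lineage factor of macrophages Irf8, and several housekeeping genes of the mitochondrion and the secretory pathway. Usp10 encodes a deubiquitinating enzyme.

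Several measurements go against the labels and touch every value below. All values are log2 of the background-subtracted intensity minus the array's 75th percentile, and a difference is the mean of the arrays labelled KO minus the mean of those labelled WT. The Usp10 probe read 3.64, 3.37 and 3.56 on the arrays labelled KO and 3.01, 3.13 and 2.95 on those labelled WT. It was thus higher on each array labelled KO, by 0.49 ± 0.16 (SE; limma adjusted p = 0.416), and the probe may lie outside the altered part. Y-linked genes gave no signal above background on WT replicate 2, while Ddx3y, Eif2s3y and Uty were above it on WT replicate 1. One Xist probe was well above background on both, at -0.62 on WT replicate 1 and 0.43 on WT replicate 2. The other Xist probe, at -6.03 and -3.90, was above it on WT replicate 2 only. Both replicates are labelled male, and WT replicate 1 thus had Y-linked and Xist signal. The file headers give 2 scan times, the first shared by KO replicates 1 and 2 and WT replicates 2 and 3, the second by KO replicate 3 and WT replicate 1. A difference within the second scan is thus KO replicate 3 minus WT replicate 1 and has no spread. Between 64.4% and 73.9% of the spots were well above background on an array, and all 10 markers of kidney epithelium were measured on all 6 arrays, with a summed signal between 6.47 and 6.57. Cdh16 was the brightest of these markers and weighs most in their sum, so an even sum does not show that each marker was even. On KO replicate 2, Six2 was -0.059, against 0.65 to 1.56 on the other arrays. Slc34a1 was also lowest on KO replicate 2, while Aqp2 was highest there. With 3 arrays in a group the precision of each difference is limited, and it also depends on the spread of the gene between arrays.

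Promoters are shown for the 2 listed genes with the largest differences, Osgin1 (lower on the arrays labelled KO) and Crispld2 (higher), and for Hsdl1, whose window also holds the recorded edge of the listed gene Dnaaf1. Each sequence runs 5′ to 3′ on the strand of its gene, from 250 bases before the start of the transcript to 50 bases after it, as RefSeq gives it for assembly GRCm38.p6. Capitals mark matches to 4 short motifs, searched on both strands. These were TGANNNNGC, the core of the antioxidant response element that the stress factor NRF2 binds, the E-box CACGTG, the CCAAT box, and the full palindrome of the glucocorticoid response element.
Osgin1, chr8:119436897-119437196, plus strand: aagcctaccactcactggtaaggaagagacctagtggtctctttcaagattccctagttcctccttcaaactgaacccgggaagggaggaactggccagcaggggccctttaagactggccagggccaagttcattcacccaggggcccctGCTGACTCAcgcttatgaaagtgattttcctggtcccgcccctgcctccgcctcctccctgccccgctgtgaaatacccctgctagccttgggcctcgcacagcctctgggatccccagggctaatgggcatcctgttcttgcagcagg
Crispld2, chr8:119992188-119992487, plus strand: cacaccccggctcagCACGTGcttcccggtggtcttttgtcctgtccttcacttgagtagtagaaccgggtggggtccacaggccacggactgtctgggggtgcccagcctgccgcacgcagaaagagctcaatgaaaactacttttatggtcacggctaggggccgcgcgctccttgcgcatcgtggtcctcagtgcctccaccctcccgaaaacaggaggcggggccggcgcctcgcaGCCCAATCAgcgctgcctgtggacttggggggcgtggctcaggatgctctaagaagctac
Hsdl1, chr8:119575126-119575425, minus strand: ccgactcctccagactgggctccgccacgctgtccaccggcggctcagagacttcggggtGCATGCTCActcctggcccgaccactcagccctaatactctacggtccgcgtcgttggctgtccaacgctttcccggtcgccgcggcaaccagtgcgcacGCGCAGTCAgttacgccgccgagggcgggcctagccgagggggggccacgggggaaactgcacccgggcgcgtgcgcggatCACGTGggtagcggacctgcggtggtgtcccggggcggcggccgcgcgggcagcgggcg

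The window of Osgin1 held TGANNNNGC from -99 to -91, counted from the start of the transcript. That of Crispld2 held an E-box from -235 to -230, and a CCAAT box from -8 to -4 that overlaps a match to TGANNNNGC from -10 to -2. The Hsdl1 window held TGANNNNGC from -190 to -182 and from -90 to -82 and an E-box from -9 to -4. A promoter was listed for 21 of the genes, in 26 windows. TGANNNNGC was found in 15 of these 26 windows (57.7%) and in 41.3% of all 32851 promoter windows of the same length. The E-box was found in 4 of 26 (15.4%) against 7.15% of all windows, and CCAAT in 9 of 26 (34.6%) against 37.4%. The glucocorticoid palindrome was in no window of a listed gene and in 0.00913% of all windows. A match is a run of letters and not a measured binding site.

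None of the 29 tested genes passed an adjusted p of 0.05 over all genes in limma, the linear model fit used throughout, or in any of the 19 alternative fits. Of all 21207 genes, 17 passed, which is 0.0802%. The count over all genes was 30 without KO replicate 3 and 0 without any other single array, where between 1072 and 2647 genes had an unadjusted p under 0.05. At an unadjusted p under 0.05 there were 3 listed genes, Osgin1, Crispld2 and Slc38a8, or 10.3% of those tested, against 10.4% of all genes. Without WT replicate 2 there were again 3, now Osgin1, Crispld2 and the palmitoyltransferase gene Zdhhc7, against 11.7% of all genes. The share of listed genes at this level was therefore near that of all genes.

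**Figure D1:**
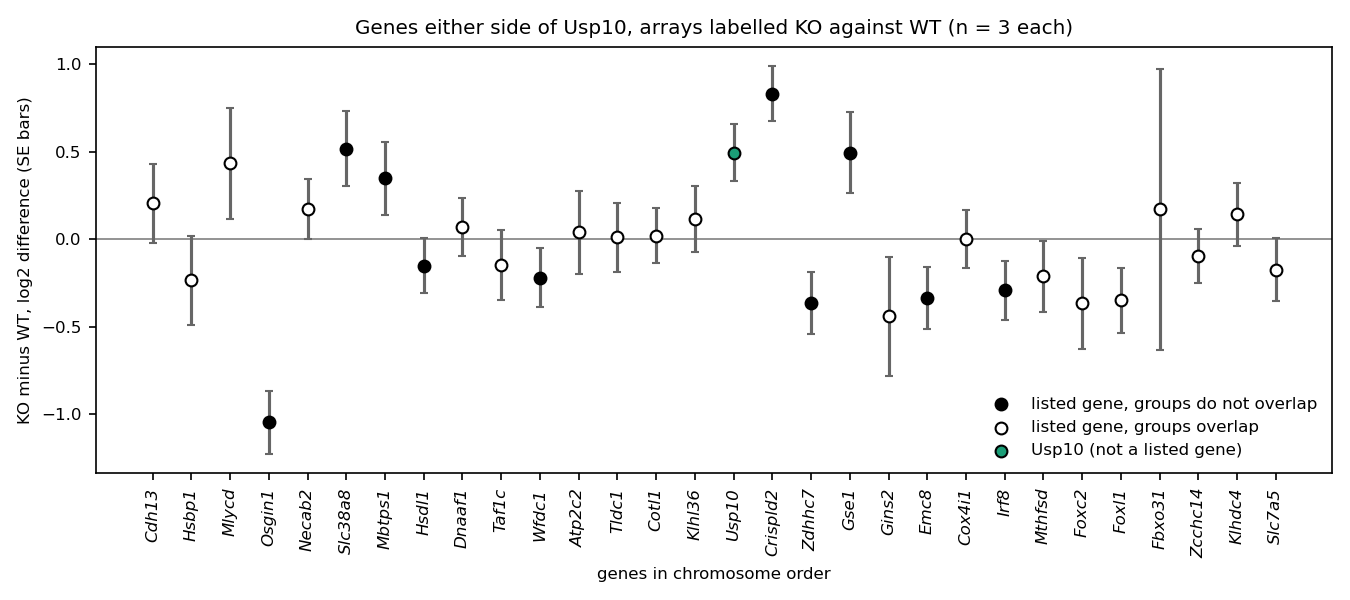
Difference in log2 signal, arrays labelled KO minus arrays labelled WT, of the 29 tested genes and Usp10 in chromosome order (bars: SE of the limma fit, n = 3 arrays per group). Filled points are genes whose groups do not overlap; Osgin1 (-1.05) and Crispld2 (0.83) lie farthest from 0 and on different sides of it, while Fbxo31 has the widest bar (SE 0.80).

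The plot of differences in chromosome order shows values scattered around 0, 15 above and 14 below, with a median of 0.0023. Over all genes the median was 0.028, and the median size of a difference was 0.22 for all genes and 0.21 for the listed ones. With quantile normalisation 10 of the 29 were higher and 19 lower, with a median of -0.087. On the side before Usp10, from Cdh13 to Klhl36, 10 of 15 tested genes were higher and 5 were lower (median 0.039). On the side after it, from Crispld2 to Slc7a5, 5 of 14 were higher and 9 lower (median -0.19). Of all 21207 genes 11294 were higher. With quantile normalisation the medians before and after Usp10 were -0.025 and -0.19, and with normexp background correction 0.24 and -0.074. A difference between the sides was not tested. The direct neighbours of Usp10 in the list were Klhl36, at 0.12 ± 0.19, and Crispld2, at 0.83 ± 0.16 (SE). The 751 other tested genes of chromosome 8 had a median of -0.023, and 70 of them (9.32%) had an unadjusted p under 0.05.

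In 10 of the 29 genes (34.5%) the ranges of the 2 groups did not overlap, against 18.2% of all genes. Slc38a8, Mbtps1, Crispld2 and Gse1 were the 4 that were higher, and Osgin1, Hsdl1, Wfdc1, Zdhhc7, Emc8 and Irf8 the 6 that were lower. Without WT replicate 2 the counts were 12 of 29 (41.4%) and 33.8% of all genes. Against WT replicate 3 alone, which had Y-linked but no Xist signal, they were 18 of 29 (62.1%) and 62.6%. Within the first scan they were 13 of 29 (44.8%) and 38.4%. With fewer arrays the share rises for all genes, so each count is read only against its own background. A difference between the share of the listed genes and that of all genes was not tested.

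**Figure D2:**
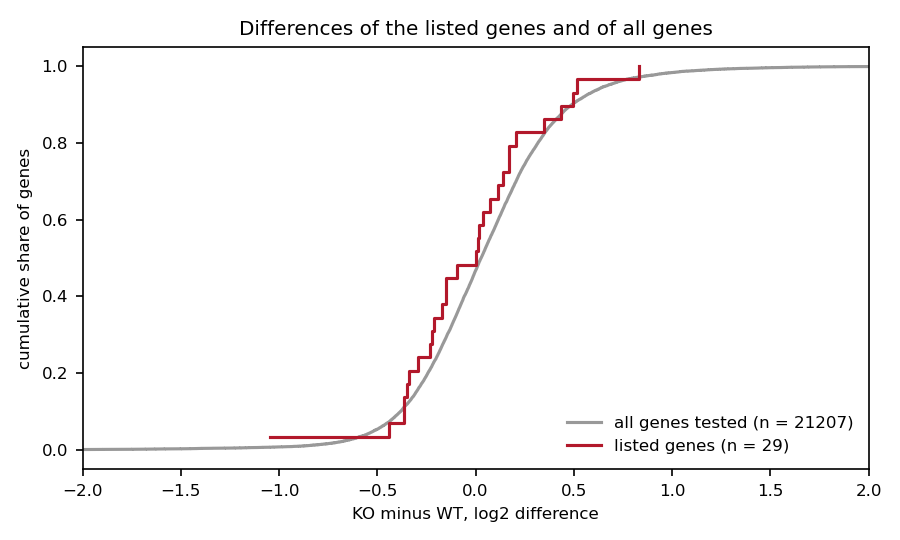
Cumulative share of genes (y axis, 0 to 1) by difference in log2 signal, KO minus WT, for the 29 listed genes (red steps) and all 21207 genes tested (grey line); the x axis ends at -2 and 2, and differences of all genes run from -3.18 to 4.51. The red steps follow the grey line, with Osgin1 at -1.05 and Crispld2 at 0.83 as their ends.

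The cumulative plot sets the listed genes against all genes and shows how far the 2 ends stand from the others. Only Osgin1, Crispld2 and Slc38a8, 10.3% of the listed genes, differed by more than 0.5 in either direction, against 15.0% of all genes.

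Several genes of stress and metabolism lie on the side before Usp10. Osgin1 (oxidative stress induced growth inhibitor 1) encodes a protein that restrains growth and is a known target of NRF2. Its signal was -2.96, -3.36 and -2.94 on the arrays labelled KO and -1.97, -2.11 and -2.04 on those labelled WT. The groups did not overlap, and every array labelled WT was higher by more than the whole range within either group. The mean was 2.06-fold lower on the arrays labelled KO, a log2 difference of -1.05 ± 0.18 (SE; 95% interval -1.47 to -0.62), with a limma adjusted p of 0.122. It was -1.08 within the first scan and -0.97 within the second, -1.08 without WT replicate 2 and -1.04 against WT replicate 3 alone. With scan time as a term the adjusted p was 0.0667, the lowest of the fits made for this gene, against a highest of 0.517. With normexp background correction the difference was smaller, at -0.46, while the median of all genes was 0.14.

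Of 8 measured genes in the list of NRF2 and its targets, 5 had a difference above 0 and 3 below, with a median of 0.084. No gene of it passed the adjusted threshold. Gclc, the catalytic subunit of the enzyme that makes the first intermediate of glutathione, was the only one with an unadjusted p under 0.05. It read 3.51, 4.82 and 4.40 on the arrays labelled KO and 3.27, 3.13 and 3.00 on those labelled WT (difference 1.11 ± 0.32, SE; limma adjusted p = 0.384). Gclc was thus higher where Osgin1 was lower. Srxn1, which restores oxidised peroxiredoxins, differed by 0.47, Nqo1, a quinone reductase, by 0.57, and Gclm, the regulatory subunit of the glutathione enzyme, by -0.40.

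Mlycd encodes malonyl-CoA decarboxylase, which removes the inhibitor of fatty acid entry into mitochondria. Its signal was 1.52, 1.91 and 1.08 on the arrays labelled KO and 0.59, 1.63 and 0.99 on those labelled WT. The groups overlapped, and the difference was 0.43 ± 0.32 (SE). The mean was 0.83 in the second scan and 1.51 in the first (limma adjusted p = 0.111 between scans). Of the second scan, WT replicate 1 was the lowest array, but KO replicate 3 (1.08) lay above WT replicate 3 of the first (0.99). In the list of malonyl-CoA and fatty acid oxidation genes 5 of 10 were higher and 5 lower (median -0.11), none passed, and Cpt1a, the carnitine transferase that malonyl-CoA inhibits, had the smallest p (-0.55 ± 0.20, SE; limma adjusted p = 0.446).

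Hsbp1, which encodes a small protein that binds heat shock factor 1, gave overlapping groups, with 0.60, 0.21 and 0.01 on the arrays labelled KO and 0.09, 0.55 and 0.87 on those labelled WT. Of 7 measured heat shock factors and targets 4 were higher and 3 lower (median 0.095). The chaperone gene Hsph1 was the only one at an unadjusted p under 0.05, at -0.93 ± 0.25 (SE; limma adjusted p = 0.343). Hsdl1 encodes a protein of the short-chain dehydrogenase family. It read -4.16, -4.10 and -4.05 on the arrays labelled KO and -3.80, -4.05 and -4.01 on those labelled WT. Its groups did not overlap, but KO replicate 3 and WT replicate 2 were equal to 2 decimals, the difference was only -0.15 ± 0.16 (SE), and it was 0.24 with normexp background correction.

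Dnaaf1, which shares the window shown above with Hsdl1, encodes a factor that preassembles the dynein arms of motile cilia. It differed by 0.072 ± 0.17 (SE), with overlapping groups between -5.08 and -4.71, and turned to -0.019 with quantile normalisation. Of 8 measured genes of motile cilium assembly 7 were lower and 1 higher (median -0.18). With single arrays left out, between 5 and 7 of the 8 were lower, fewest without KO replicate 1. Dnaaf3, another assembly factor, was the only one at an unadjusted p under 0.05 (-0.63 ± 0.17, SE; limma adjusted p = 0.349). The ciliary gene Fam92b was not well above background on any array.

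Cox4i1 encodes a subunit of cytochrome c oxidase and Emc8 a subunit of the ER membrane protein complex, which inserts membrane proteins. They are head-to-head neighbours in mammalian genomes. Cox4i1 read 4.96, 5.12 and 4.84 on the arrays labelled KO and 4.84, 5.01 and 5.06 on those labelled WT. These values are interleaved, and the difference was 0.0023 ± 0.17 (SE), or -0.14 with quantile normalisation. Emc8 read -0.89, -1.09 and -1.05 against -0.77, -0.83 and -0.43. All 3 arrays labelled KO were below all 3 labelled WT, by -0.34 ± 0.18 (SE; limma adjusted p = 0.522). In the list of other oxidase subunits 7 of 10 were higher and 3 lower (median 0.20), with Cox6c at 0.69 ± 0.27 (SE; limma adjusted p = 0.461). In the list of the ER membrane protein complex 3 of 9 were higher and 6 lower (median -0.052), and none had an unadjusted p under 0.05.

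Genes of the secretory pathway and the cell surface held the largest difference upward. Crispld2 encodes a secreted protein with a CAP domain and LCCL domains, known from lung development, and is the first listed gene after Usp10. Its brighter probe read 2.30, 2.10 and 2.10 on the arrays labelled KO and 1.26, 1.33 and 1.42 on those labelled WT. Its other probe read 1.20, 0.94 and 1.29 against 0.34, 0.13 and 0.06. On both probes every array labelled KO was above every array labelled WT, with a gap wider than the range within either group. The brighter probe was 1.78-fold higher, a log2 difference of 0.83 ± 0.16 (SE; 95% interval 0.46 to 1.20; limma adjusted p = 0.171), and the other probe differed by 0.97 ± 0.18 (SE).

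The difference of Crispld2 kept its sign in all 19 alternatives. It was 0.82 within the first scan and 0.84 within the second, 0.83 without WT replicate 2, 0.74 against WT replicate 3 alone and 0.79 with normexp background correction. Its adjusted p ran from 0.0824, with scan time as a term, to 0.611. Crispld2 is known as a product of mesenchymal cells, and markers of stroma are given beside it. All 8 had a difference below 0 (median -0.14), but Col1a1 was at -0.0029, Col1a2 at -0.019 and Dcn at -0.024. Without KO replicate 2 only 3 of the 8 were below 0 and 5 above (median 0.076). Pdgfrb, the receptor that marks mural and interstitial cells, was the only one at an unadjusted p under 0.05, at -0.53 ± 0.17 (SE). Their summed signal was 8.12, 7.40 and 7.49 on the arrays labelled KO and 7.47, 7.97 and 7.90 on those labelled WT, so that the groups overlapped. The part of stroma content in the difference of Crispld2 was not tested. In bulk tissue, fewer cells of a type and less RNA per cell cannot be told apart.

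**Figure D3:**
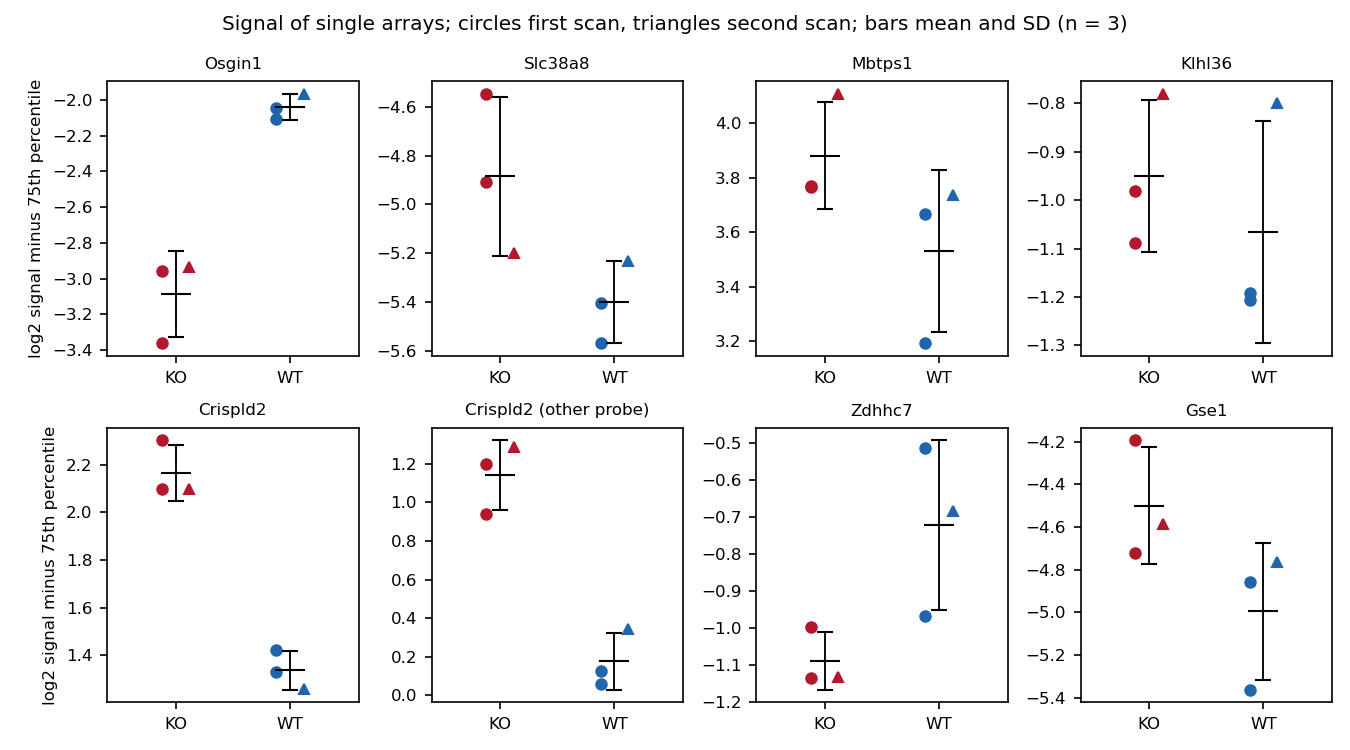
Log2 signal minus the array's 75th percentile (y axis) on single arrays labelled KO (red) and WT (blue) for Osgin1, Slc38a8, Mbtps1, Klhl36, both probes of Crispld2, Zdhhc7 and Gse1; circles are the first scan, triangles the second, bars mean and SD (n = 3). Osgin1 and both Crispld2 probes show KO and WT arrays far apart in both scans, whereas the Slc38a8 triangles nearly coincide (-5.20 and -5.23). The triangles are KO replicate 3 and WT replicate 1 alone, and each panel has its own y range.

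The plot of single arrays shows for each of these genes whether arrays labelled KO and WT were apart in both scans. For the second scan this compares only KO replicate 3 with WT replicate 1. Slc38a8, a sodium-coupled transporter of neutral amino acids, had an unadjusted p under 0.05 but a gap in the first scan only. It read -4.91, -4.55 and -5.20 on the arrays labelled KO and -5.23, -5.40 and -5.57 on those labelled WT, and was not well above background on KO replicate 3. The difference was 0.52 ± 0.21 (SE; limma adjusted p = 0.473), made up of 0.76 within the first scan and 0.034 within the second. With normexp background correction and quantile normalisation it was only 0.085. This gene therefore lies at the limit of detection.

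Slc7a5, the light chain of the exchanger of large neutral amino acids LAT1, was measured by 2 probes that did not agree in sign. The brighter differed by -0.17 ± 0.18 (SE) and the other by 0.22 ± 0.22 (SE), both with overlapping groups. Of 9 measured genes of this transport 4 were higher and 5 lower (median -0.013), and none had an unadjusted p under 0.05.

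Mbtps1 encodes site-1 protease, which cleaves the sterol and stress factors SREBP and ATF6 in the Golgi. The brighter of its 2 probes read 3.77, 3.77 and 4.11 on the arrays labelled KO and 3.74, 3.67 and 3.19 on those labelled WT. The groups nearly touched, and the differences were 0.35 ± 0.21 on this probe and 0.35 ± 0.26 (SE) on the other, whose groups overlapped. Of 12 partners and substrates 7 were higher and 5 lower (median 0.12). Insig1, the sterol-regulated anchor of the SREBP escort and itself a target of SREBP, was the only one at an unadjusted p under 0.05. It read -3.07, -2.94 and -2.89 on the arrays labelled KO and -3.99, -4.15 and -3.99 on those labelled WT, a difference of 1.08 ± 0.16 (SE; limma adjusted p = 0.0776). Next in the list were Insig2 (0.39), the site-2 protease gene Mbtps2 (0.49) and Atf6 (-0.42).

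Zdhhc7 encodes a palmitoyltransferase of the Golgi. It read -1.14, -0.998 and -1.13 on the arrays labelled KO and -0.68, -0.97 and -0.52 on those labelled WT. WT replicate 2 lay just above the arrays labelled KO, and the difference was -0.37 ± 0.18 (SE; limma adjusted p = 0.505). Wfdc1, a secreted protein with a whey acidic protein domain, was -3.34, -3.34 and -3.25 against -3.23, -3.17 and -2.87. The groups nearly touched, the difference was -0.22 ± 0.17 (SE), and with normexp background correction it was 0.089. Cdh13, a cadherin anchored in the membrane by a lipid, differed by 0.20 ± 0.23, and Atp2c2, a calcium and manganese pump of the secretory pathway, by 0.039 ± 0.24 (SE), both with overlapping groups.

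Genes that act in the nucleus were mostly on the side after Usp10. Gins2 encodes a subunit of the GINS complex, part of the helicase that opens DNA for replication. It read -2.06, -3.23 and -2.98 on the arrays labelled KO and -2.64, -2.42 and -1.89 on those labelled WT. KO replicate 1 was among the highest arrays, so the groups overlapped, and the difference was -0.44 ± 0.34 (SE). Without KO replicate 1 it had an unadjusted p under 0.05. Of the 11 other genes of GINS and the replicative helicase 10 were below 0 and 1 was above, with a median of -0.31 against 0.028 for all genes. Without KO replicate 2, 8 of the 11 were below 0 (median -0.24). Mcm2, a subunit of the helicase ring, was at -0.78 ± 0.29 (SE; limma adjusted p = 0.442), the only one at an unadjusted p under 0.05. After it came Gins4 (-0.43), Mcm7 (-0.61) and Mcm5 (-0.64).

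Taf1c, a subunit of the selectivity factor that brings RNA polymerase I to ribosomal genes, differed by -0.15 ± 0.20 (SE), with overlapping groups. In the list of polymerase I initiation 3 of 8 were higher and 5 lower (median -0.034), and none had an unadjusted p under 0.05. Gse1 encodes a coiled-coil protein found with histone deacetylase complexes. It read -4.72, -4.19 and -4.59 on the arrays labelled KO and -4.77, -4.86 and -5.36 on those labelled WT. The groups nearly touched, and the difference was 0.49 ± 0.23 (SE; limma adjusted p = 0.493), with 0.65 within the first scan and 0.18 within the second. With normexp background correction and quantile normalisation the difference was only 0.13. Gse1 is dim, as the lowest signal flagged well above background ran from -6.16 on WT replicate 3 to -5.07 on KO replicate 3. Zcchc14, a zinc finger gene, differed by -0.096 ± 0.15 (SE).

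Irf8 is a transcription factor that macrophages and dendritic cells need for their development and that takes part in the response to interferon. It read -1.39, -1.45 and -1.12 on the arrays labelled KO and -1.07, -1.10 and -0.92 on those labelled WT. The groups did not overlap, though KO replicate 3 and WT replicate 2 nearly met. The difference was -0.29 ± 0.17 (SE; limma adjusted p = 0.545), with -0.41 within the first scan and -0.050 within the second. Macrophage markers were mostly lower as well. Of 9 measured macrophage markers 7 had a difference below 0 and 2 above, Mrc1 (0.13) and C1qb (0.018), with a median of -0.76. At an unadjusted p under 0.05, 5 of the 9 were lower, against 897 lower of all 21207 genes. None of the markers passed the adjusted threshold. Without KO replicate 2 the median was -0.39, with 8 of 9 below 0. Their summed signal was 2.56 to 2.59 on the arrays labelled KO and 2.74 to 2.96 on those labelled WT, so that the groups did not overlap. Cx3cr1, the fractalkine receptor, was lowest in p (-1.58 ± 0.21, SE; limma adjusted p = 0.0604), while Csf1r, the receptor for the macrophage growth factor, differed by -0.11 ± 0.17 (SE). Csf1r was the brightest of these markers and weighs most in their sum, although its own groups overlapped. The part of macrophage content in the difference of Irf8 was not tested.

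Of 5 dendritic cell markers 2 were measured, Zbtb46 (-0.18) and Flt3 (0.010), and the defining markers Itgax and Clec9a were not above background on any array. In the list of other interferon regulatory factors 2 of 6 were higher and 4 lower (median -0.13). Irf9, the DNA-binding subunit of the factor that type I interferon activates, read 0.75, 0.82 and 1.13 on the arrays labelled KO and 2.15, 1.89 and 1.68 on those labelled WT. The groups were apart, with a difference of -1.01 ± 0.20 (SE; limma adjusted p = 0.180). Irf8 differed less than Irf9 did, but the difference between them was not tested.

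**Figure D4:**
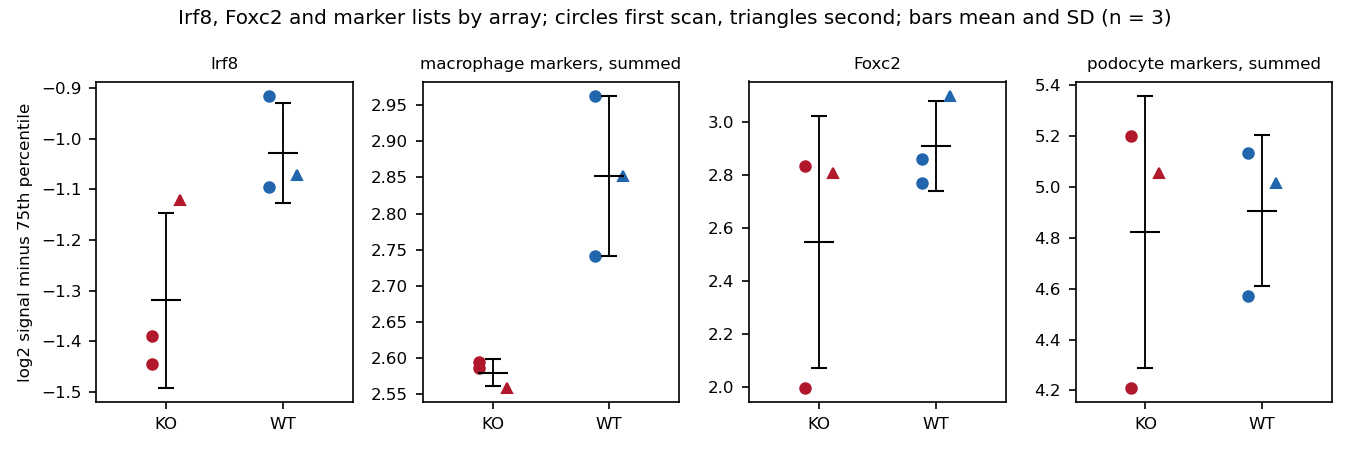
Log2 signal minus the array's 75th percentile (y axis) of Irf8 and Foxc2 and the log2 summed signal of macrophage and podocyte markers on single arrays labelled KO (red) and WT (blue); circles are the first scan, triangles the second, bars mean and SD (n = 3), and each panel has its own y range. The macrophage sum is at most 2.59 on all 3 arrays labelled KO and at least 2.74 on those labelled WT, and KO replicate 2 is lowest both in Foxc2 (2.00) and in the podocyte sum (4.21).

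In the forkhead cluster, Foxf1 was not detected, and Foxc2 and Foxl1 had overlapping groups and did not pass. The plot beside the markers shows that 1 array sets the value of Foxc2, a factor of podocytes, lymphatic vessels and nephron mesenchyme. Foxc2 read 2.83, 2.00 and 2.81 on the arrays labelled KO and 3.10, 2.86 and 2.77 on those labelled WT. KO replicate 2 stood alone at the bottom, and the difference of -0.37 ± 0.26 (SE; limma adjusted p = 0.603) was -0.090 without it. KO replicate 2 also had the lowest summed signal of the 6 podocyte markers, 4.21 against 4.57 to 5.20 on the other 5 arrays, and the lowest sum of stroma (7.40) and of smooth muscle markers (3.25 against 4.14 to 4.71). The podocyte markers had 2 of 6 differences above 0 (median -0.30), and 5 of 6 without KO replicate 2 (median 0.069). In lymphatic endothelium 3 of 4 markers were measured, with Lyve1 higher by 0.97 ± 0.19 (SE; limma adjusted p = 0.176), Flt4 at -0.023 and Pdpn at -0.0012. Prox1 was above background on 1 array only.

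Foxl1, a factor of the mesenchyme below epithelia, read -1.09, -1.49 and -1.51 on the arrays labelled KO and -1.17, -0.97 and -0.90 on those labelled WT. KO replicate 1 lay among the arrays labelled WT, and the difference was -0.35 ± 0.19 (SE; limma adjusted p = 0.526), with -0.35 and -0.34 in the 2 scans. Without KO replicate 1 its unadjusted p was under 0.05. Foxf1, which lung and gut mesenchyme need, was not well above background on any array, so no level or difference is given. Of 12 other forkhead genes 4 were higher and 8 lower (median -0.12). Foxa1, a pioneer factor of endoderm and of collecting duct epithelium, was the only one at an unadjusted p under 0.05 (0.85 ± 0.23, SE; limma adjusted p = 0.349).

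The remaining genes gave small differences. Cotl1, which binds filamentous actin, read between 3.68 and 3.93 on all 6 arrays, a difference of 0.020 ± 0.16 (SE). Klhl36, a kelch protein of ubiquitin ligases and the listed gene next before Usp10, was highest on the 2 arrays of the second scan, -0.78 and -0.80, against -1.21 to -0.98 in the first. Klhdc4, another kelch gene, differed by 0.14 ± 0.18 (SE). Tldc1, which encodes a protein linked to mTOR signalling, differed by 0.011 ± 0.20 (SE) on its brighter probe, and its other probe was above background on 1 array. Necab2, a calcium-binding protein of neurons, differed by 0.17 ± 0.17 (SE). In each of these 5 genes the groups overlapped.

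Detection failed for a few listed genes. Adad2, known from the testis, the potassium channel gene Kcng4, Fam92b and Foxf1 were not well above background on any of the 6 arrays. Jph3, which ties the plasma membrane to the endoplasmic reticulum in neurons, was above background on 2 arrays of each group and was not tested. It read -5.66, -5.63 and -6.25 on the arrays labelled KO and -5.53, -5.24 and -5.27 on those labelled WT. The 2 arrays on which it was not above background were those of the second scan. The name Map1lc3b2 matched no gene of the table used for names. The gene at this place in that table is Map1lc3b, which encodes the autophagy protein LC3B and was looked at after its values were seen. Of 48 genes of the table that lie between Cdh13 and Slc7a5 and are not listed, 5 had a probe and 3 were tested, and none of them passed.

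The largest single difference in the stretch was between the scan times, in 1 gene. The median size of a difference in the listed genes was 0.19 between scans and 0.21 between genotypes. In the fit with genotype and scan time, 62 of 21207 genes (0.292%) passed between genotypes and no listed gene did. Between the scan times 2001 genes (9.44%) passed, 1 of the 29 listed genes (3.45%) and 43 of the 751 other genes of chromosome 8 (5.73%). The listed gene was Fbxo31, which encodes the substrate receptor of an SCF ubiquitin ligase. Its brighter probe read 3.50, 4.17 and 1.77 on the arrays labelled KO and 1.43, 3.44 and 4.06 on those labelled WT. The 2 low arrays, KO replicate 3 and WT replicate 1, were those of the second scan, and the second scan minus the first gave -2.19 ± 0.26 (SE; limma adjusted p = 0.00706). The difference between genotypes on this probe was 0.17 ± 0.80 (SE). The other probe of Fbxo31 did not follow the scan, with 0.64, 0.75 and 0.90 against 0.47, 0.54 and -0.04, and its groups did not overlap (0.44 ± 0.21, SE). In the list of the SCF core 2 of 7 genes were higher and 5 lower (median -0.13), and none had an unadjusted p under 0.05.

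**Figure D5:**
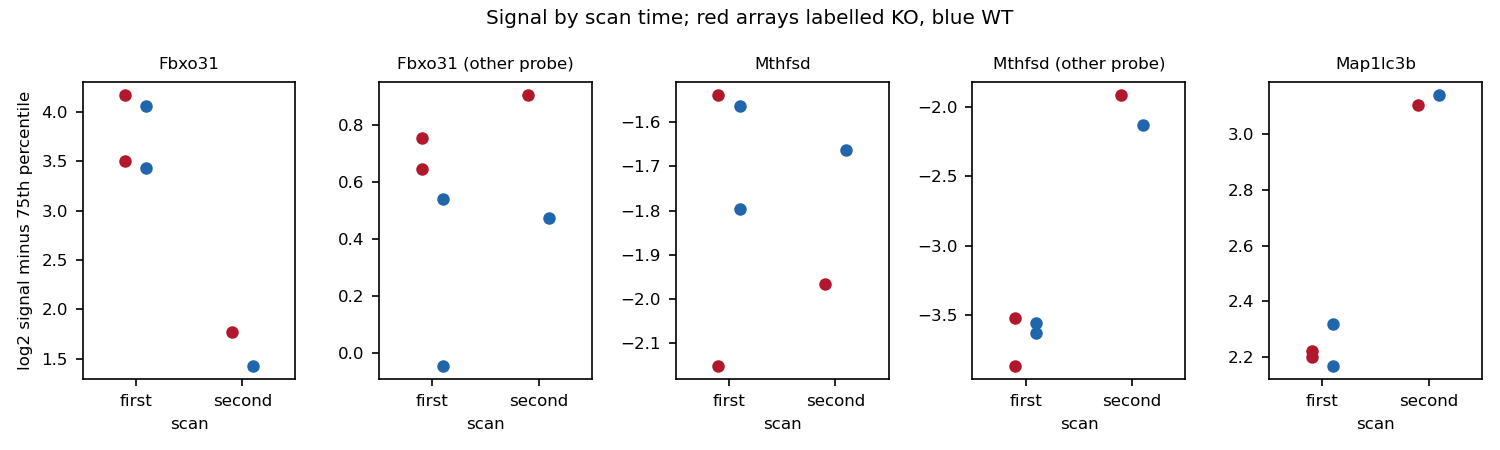
Log2 signal minus the array's 75th percentile (y axis) by scan time (x axis) on single arrays labelled KO (red) and WT (blue) for both probes of Fbxo31, both probes of Mthfsd, and Map1lc3b; each panel has its own y range. One probe of Fbxo31 is low on both arrays of the second scan (1.77 and 1.43), one probe of Mthfsd (-1.91 and -2.13) and the Map1lc3b probe (3.11 and 3.14) are high there, and the other probes of Fbxo31 and Mthfsd do not follow the scan.

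The plot by scan time shows the same for Mthfsd, which encodes a protein with a domain of folate metabolism. Its brighter probe read -2.15, -1.54 and -1.97 on the arrays labelled KO and -1.66, -1.56 and -1.80 on those labelled WT, a difference of -0.21 ± 0.20 (SE). Its dimmer probe read -1.91 and -2.13 on the 2 arrays of the second scan and -3.86 to -3.52 on the 4 of the first, with a difference between genotypes of 0.0039 ± 0.58 (SE). Map1lc3b was 3.11 and 3.14 in the second scan and 2.17 to 2.32 in the first, higher by 0.89 ± 0.13 (SE; limma adjusted p = 0.0132), and differed by -0.033 between genotypes. Of 11 genes of LC3 conjugation, Map1lc3b included, 6 had a difference above 0 and 5 below (median 0.016). Gabarapl1, an LC3 relative, was the only one at an unadjusted p under 0.05 (0.71 ± 0.24, SE; limma adjusted p = 0.423).

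Of the 3 measured neuron markers, Snap25, a synaptic vesicle fusion gene, was low in the second scan too, at 1.58 and 1.67 against 3.26 to 4.07 in the first. Syt1 (-4.60 and -4.22 against -4.90 to -4.01) and Stmn2 (-2.46 and -2.10 against -3.01 to -1.91) lay within the range of the first scan, and Tubb3 was not above background on any array. The summed signal of the list, 1.71 and 1.76 in the second scan and 3.30 to 4.10 in the first, mostly repeats Snap25. Whether Snap25 shares a source with the values of Fbxo31 was not tested. Scan time is what the headers give, and the sources used here do not say what else differed between the 2 sets of arrays.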

How the data were processed

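RNA from kidneys of 6 neonates was hybridised to single-colour Agilent arrays, 1 per animal. Spot values were deposited as linear intensity after background subtraction, without normalisation across arrays. The file headers name Feature Extraction 11.0.1.1 as its source, while the submitters' processing notes name version 9.1. Control spots and spots flagged as outliers were left out, log2 was taken, and each array's 75th percentile was subtracted. Spots of a probe were averaged. Probes had to be well above background on all arrays labelled KO or all labelled WT, and each gene was read from its brightest passing probe. The headers give build mm9 for the array design; RefSeq tables of GRCm38.p6 gave names, gene order and promoters.

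Groups came from the labels. All 21207 genes were tested together in limma 3.58.1 under R 4.3.3, with lmFit and eBayes in a two-sided test and Benjamini-Hochberg adjustment at a threshold of 0.05. The code was tested on simulated data. With 3 arrays against 3, an exact permutation test of 1 value cannot go below p = 0.1. An unadjusted p refers to the same fit. Values of a gene's other probe come from a fit of every probe. Summed marker signals are log2 of the sum of linear values. The listed genes and all gene lists were chosen with earlier results of these data known. All listed genes could be named, and of each other list the genes with the smallest unadjusted p. Alternatives were other scalings, normexp background correction (on median signals), other filters, probe averaging, a variance trend, blocks and left-out arrays. The scan-time term, the unadjusted counts and the counts of lists and of groups that do not overlap on fewer arrays were chosen after the data were seen. The name of 1 listed gene could not be matched.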

Additional observations from a re-analysis of the deposited data

How the results depend on the processing

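No listed gene passed in any of the 19 alternatives. Over all genes 17 passed, against 27 with normexp and the 75th percentile, 62 with scan time as a block, 45 with an intensity trend and robust variance, 8 with the mean of probes and 1 with probes above background on all arrays. None passed with normexp and quantile normalisation (2208 genes at an unadjusted p under 0.05), with no filter on dim probes (2052), against WT replicate 3 alone (2009) or with scan time as a block and without WT replicate 2 (5130). Without single arrays the count ran from 0 to 30. Whether replicate numbers pair the arrays could not be decided, because the scans cut across the numbers. Deviations of same-numbered arrays had correlations of -0.40, 0.48 and -0.60 for numbers 1, 2 and 3. The arrays of number 1, and those of number 3, came from different scans, while those of number 2 shared a scan. For the arrays of the second scan, which differ in number, the value was 0.89. Pairing with scan time removed was not tested. With a replicate block 0 genes passed (1609 at an unadjusted p under 0.05). The median difference of all genes was 0.028, -0.028 with quantile normalisation and 0.14 with normexp and the 75th percentile. The median of the listed genes, 0.0023, was -0.087 with quantile normalisation, -0.032 with array median scaling, 0.092 with normexp and the 75th percentile, -0.071 with normexp and quantile normalisation, -0.047 with probes above background on all arrays, -0.090 against WT replicate 3 alone and -0.13 to -0.015 without single arrays. With a gene's second probe counted beside the alternatives, the sign always held for 18 of the 30 genes with Usp10, Osgin1 and Crispld2 among them. It turned in at least 1 for the other 12, and for Mthfsd only on its second probe. Quantile normalisation gave -0.019 for Dnaaf1, -0.044 for Atp2c2, -0.025 for Tldc1, -0.087 for Cotl1 and -0.14 for Cox4i1. Array median scaling gave -0.023 for Tldc1, -0.014 for Cotl1 and -0.032 for Cox4i1. Normexp and the 75th percentile gave 0.24 for Hsdl1, 0.11 for Taf1c, 0.089 for Wfdc1, -0.037 for Cotl1 and -0.099 for Cox4i1. Normexp and quantile normalisation gave -0.044 for Dnaaf1, -0.048 for Atp2c2, -0.012 for Tldc1, -0.070 for Cotl1 and -0.17 for Cox4i1. The first scan alone gave -0.019 for Atp2c2 and -0.00034 for Cox4i1. Against WT replicate 3 alone, Cdh13 was at -0.057, Atp2c2 at -0.014, Cox4i1 at -0.090 and Fbxo31 at -0.92. With scan time as a block and without WT replicate 2, Tldc1 was at -0.012 and Cox4i1 at -0.011. The mean of probes gave 0.024 for Slc7a5, whose second probe gave 0.22, and the second probe of Mthfsd gave 0.0039. Without single arrays Dnaaf1 ran from -0.014 to 0.12, Taf1c ran from -0.29 to 0.00019, Atp2c2 ran from -0.13 to 0.28, Tldc1 ran from -0.076 to 0.18, Cotl1 ran from -0.037 to 0.090, Cox4i1 ran from -0.072 to 0.067 and Fbxo31 ran from -0.60 to 0.86. The cause of these turns was not tested. The signal over background limits Slc38a8, which was not well above background on all arrays.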
